A study of Mus musculus with 6 samples.

Results

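Ptprc, Csf1r, C1qa, C1qb, C1qc, Lyz2, Cd68, Tyrobp, Fcer1g and Cd74 are marker genes of leukocytes, most of them of macrophages, and they were read here in libraries of sorted prostate epithelial cells as a measure of RNA that is not epithelial. They were taken by symbol from a table of 24498 genes. All 10 were in the table, and all 10 were among the 13846 genes with enough counts to be tested. RNA was sequenced in bulk from marker-positive cells sorted out of digested prostates of male mice, with 2 ng of total RNA per library. Clu intact is the group from intact males of the Clu;tdTomato model, which joins Clu-CreER(T2) to a CAG-tdTomato reporter in the Gt(ROSA)26Sor locus (strain prefix B6.Cg). Nkx castrate is the group from males of the model labelled Nkx, in which an inducible CreER(T2) was joined to an EYFP reporter in the same locus (strain prefix B6.129X1), castrated when 8 weeks old, with tissue taken after 4 weeks. Nkx intact is the group from males of the same model left intact over the same period. For all 3 groups, Clu intact included, the labels give an age of 8 weeks at surgery or start and 4 weeks to harvest. They also give an age range of 7 to 13 weeks for all mice. All 3 groups carried an inducible Cre recombinase and a fluorescent reporter, and no group without them was analysed here. The promoter that drives the recombinase in each model decides which cells can be marked, and the labels give neither the time of induction nor a step that removes leukocytes. Each group held 2 libraries, named by group and replicate number. The labels do not say that these came from separate animals, so p-values measure the spread between libraries, which may be technical.

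Macrophages take their growth signal from CSF1 through the receptor encoded by Csf1r, and they make complement C1q, lysozyme and lysosomal proteins. Leukocytes that present antigen to helper T cells load peptides onto class II molecules, whose assembly is guided by the invariant chain encoded by Cd74. In the prostate, macrophages and other leukocytes lie in the stroma and between epithelial cells, and some epithelial cells can make class II molecules themselves.

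The summed level of the 10 genes was lowest in Clu intact and most uneven in Nkx castrate. In CPM, counts scaled by TMM to a common library total, the 10 genes together summed to 42.3 and 46.1 for Clu intact, 461 and 96.8 for Nkx castrate, and 207 and 207 for Nkx intact. The replicate libraries of Clu intact and of Nkx intact lay close together, whereas Nkx castrate 1 lay above all other libraries and Nkx castrate 2 below both Nkx intact libraries. After scaling, Nkx castrate 1 held 4.76 times the summed level of Nkx castrate 2 (95% counting interval 4.38 to 5.18). The same ratio of replicate 1 to replicate 2 was 0.917 in Clu intact (interval 0.767 to 1.10) and 1.001 in Nkx intact (interval 0.918 to 1.09). In bulk RNA, fewer cells of a type and less RNA per cell cannot be told apart.

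Counts assigned to genes totalled between 10220118 and 17412874 per library. TMM adjusts the library totals for their makeup, and 1 count was worth between 0.0561 and 0.0988 CPM. Among gene counts between 1 and 20, from 75.5% to 83.3% were even numbers, depending on the library. Intervals on ratios were therefore computed on counts divided by 2 and rounded up, which widens them, and they cover counting error only. The 8 general epithelial markers, among them Epcam, Cdh1 and Krt8, summed to 6799 and 7707 CPM for Clu intact, 9742 and 12875 CPM for Nkx castrate, and 5022 and 4469 CPM for Nkx intact, so markers of the labelled cell type were abundant in every library.

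Ptprc encodes CD45, the phosphatase on the surface of nearly all leukocytes, and it was a low gene throughout. Its level was 3.04 and 2.92 CPM for Clu intact, 19.4 and 2.51 CPM for Nkx castrate, and 4.78 and 6.12 CPM for Nkx intact. Nkx castrate 1 stood apart, and the other 5 libraries lay within a narrow range. Csf1r, the CSF1 receptor of the monocyte and macrophage lineage, had 3.29 and 5.27 CPM for Clu intact, 37.8 and 2.37 CPM for Nkx castrate, and 26.4 and 17.2 CPM for Nkx intact. Nkx castrate 2 held less Csf1r than either Clu intact library, while Nkx castrate 1 held the most. Part of the Csf1r gene overlaps Hmgxb3 on the opposite strand in GENCODE M21, and the strand setting of the counting is not given in the sources used here, so its reads could include some of that gene.

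C1qa, C1qb and C1qc encode the A, B and C chains that assemble into C1q, the recognition molecule of the classical complement pathway. In the GENCODE M21 annotation they lie side by side on the minus strand of chromosome 4, with no other gene between them. C1qa was at 1.01 and 1.88 CPM for Clu intact, 19.0 and 5.62 CPM for Nkx castrate, and 11.1 and 13.0 CPM for Nkx intact. C1qb was at 2.19 and 1.32 CPM for Clu intact, 20.2 and 1.92 CPM for Nkx castrate, and 10.5 and 10.9 CPM for Nkx intact. The level of C1qc was 1.35 and 1.69 CPM for Clu intact, 20.8 and 1.63 CPM for Nkx castrate, and 9.95 and 9.09 CPM for Nkx intact. For all 3 chains the Nkx intact libraries lay above the Clu intact libraries without overlap and below Nkx castrate 1. In Nkx castrate 2, C1qb and C1qc stood at the level of Clu intact, and C1qa was higher there than in Clu intact. Those 3 values in Nkx castrate 2 rest on 76 counts of C1qa, 26 of C1qb and 22 of C1qc.

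Lyz2 encodes the lysozyme of myeloid cells, an enzyme that cleaves bacterial cell walls. Its level was 3.88 and 3.48 CPM for Clu intact, 54.5 and 7.02 CPM for Nkx castrate, and 42.6 and 41.0 CPM for Nkx intact. The 2 Nkx intact libraries agreed closely, and both Nkx groups lay above Clu intact. Lyz2 has a close copy, Lyz1, which is known from Paneth cells of the intestine. Annotated transcripts of the copies are identical at 95.8% of 1264 aligned positions, with identical stretches of up to 118 bases, so reads could have been shared or dropped between them. Lyz1 itself was at 0.169 and 0.0941 CPM for Clu intact, 3.87 and 0.0739 CPM for Nkx castrate, and 10.9 and 2.47 CPM for Nkx intact. Cd68, a glycoprotein of lysosomes that is abundant in macrophages and present at lower levels in many cells, varied least among the 10. It had 3.37 and 3.01 CPM for Clu intact, 10.7 and 5.62 CPM for Nkx castrate, and 5.93 and 4.94 CPM for Nkx intact.

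Tyrobp (DAP12) and Fcer1g (the Fc receptor gamma chain) encode small transmembrane adaptors whose cytoplasmic tyrosine motifs pass signals from activating immune receptors to the kinase SYK. Both were at the edge of detection. Tyrobp had 0 counts in both Clu intact libraries, 4.60 and 0.148 CPM for Nkx castrate, and 2.68 and 2.77 CPM for Nkx intact. Its value in Nkx castrate 2 came from 2 counts. For Fcer1g the levels were 0.844 and 0 CPM for Clu intact, 4.88 and 0.296 CPM for Nkx castrate, and 4.78 and 0.790 CPM for Nkx intact. Fcer1g had unequal counts in every group, with 10 and 0 counts for Clu intact, 87 and 4 counts for Nkx castrate, and 50 and 8 counts for Nkx intact.

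Cd74, the invariant chain, was the most abundant of the 10 in every library. It had 23.3 and 26.5 CPM for Clu intact, 269 and 69.6 CPM for Nkx castrate, and 88.7 and 101 CPM for Nkx intact. The 3 groups kept the order Clu intact below Nkx intact, with the Nkx castrate libraries on either side of Nkx intact. Cd74 made up 55.1% and 57.6% of the counts of the 10 genes for Clu intact, 58.4% and 72.0% for Nkx castrate, and 42.8% and 49.0% for Nkx intact. Nkx castrate 2, with little of the macrophage genes, had the highest share of Cd74 among its leukocyte counts. Lyz2 took 9.18% and 7.55% of them for Clu intact, 11.8% and 7.26% for Nkx castrate, and 20.5% and 19.8% for Nkx intact.

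**Figure D1:**
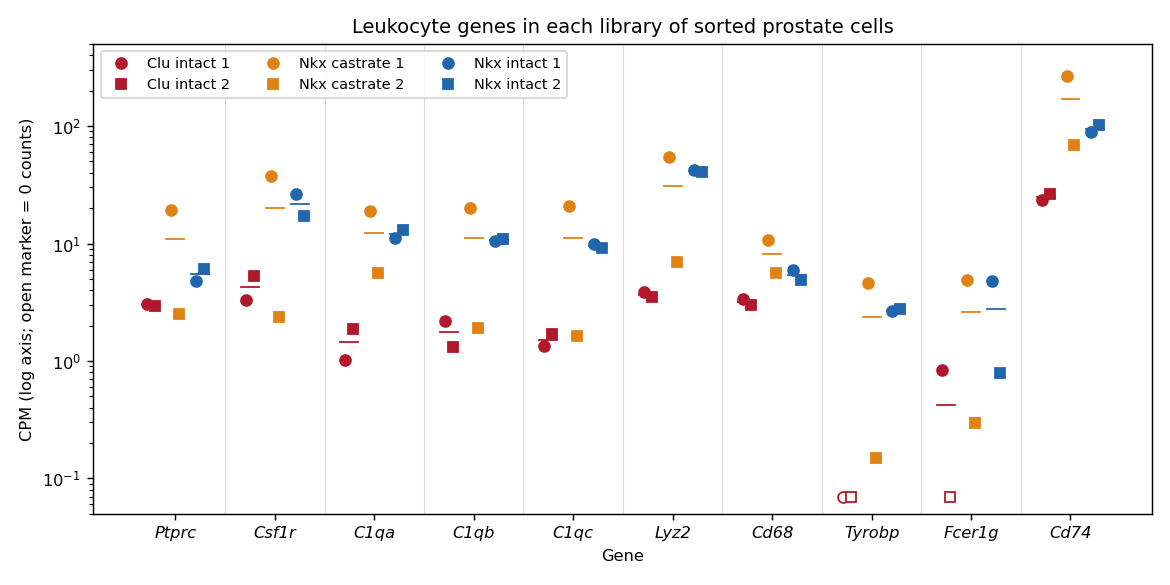
CPM of each gene (x axis) in each of the 6 libraries on a log axis, in the order Clu intact, Nkx castrate, Nkx intact; circles are replicate 1, squares replicate 2, short lines group means, and open markers 0 counts. Nkx castrate 1 is the highest library for every gene, Nkx castrate 2 lies far below it for all but Cd68, C1qa and Cd74, where the gap is smaller, and only Tyrobp (both libraries) and Fcer1g (replicate 2) are at 0 in Clu intact.

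Set against transcript length, the order of the genes within Nkx intact was led by Cd74 at 67.4 CPM per kilobase of its principal transcript, then Lyz2 at 31.8. The chains C1qa, C1qb and C1qc followed at 11.6, 9.83 and 7.91 CPM per kilobase. Tyrobp at 4.83, Csf1r at 4.64, Cd68 at 4.42 and Fcer1g at 4.13 lay close together, and Ptprc was lowest at 1.16 CPM per kilobase. The neighbours from Tyrobp to Fcer1g do not differ beyond the spread between the 2 libraries, since Fcer1g alone covered from 1.17 to 7.10 CPM per kilobase. In Clu intact the order differed below Cd74, which stood at 17.7 CPM per kilobase on average. There Lyz2 averaged 2.80 and Cd68 2.60 CPM per kilobase, whose library values overlapped.

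The replicates of Nkx castrate disagreed for each of the 10 genes in the same direction. Nkx castrate 1 exceeded Nkx castrate 2 by more than 2-fold for 9 of the 10 on log2 CPM with a prior count of 2, and by more than 4-fold for 7. Over all tested genes, 18.3% were at least 2-fold higher in Nkx castrate 1 and 8.85% at least 4-fold. The ratio of Nkx castrate 1 to Nkx castrate 2 was 16.0 for Csf1r (95% counting interval 9.70 to 28.3), 12.8 for C1qc (6.97 to 26.0) and 10.5 for C1qb (5.99 to 20.1). It was 7.76 for Lyz2 (5.71 to 10.6) and 7.70 for Ptprc (4.69 to 13.6), and smaller for Cd74 at 3.86 (3.50 to 4.28), C1qa at 3.39 (2.38 to 4.96) and Cd68 at 1.90 (1.29 to 2.84). The interval of Csf1r does not overlap that of Cd74, C1qa or Cd68, so the ratios differed between genes by more than counting error. For Tyrobp the ratio was 31.1, from 82 and 2 counts (5.28 to 1259), and for Fcer1g 16.5, from 87 and 4 counts (4.36 to 142).

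In the other groups the same genes lay near their counting error. The median absolute log2 ratio between replicates was 0.24 for the 10 genes in Clu intact, against 0.24 over all tested genes. It was 3.11 in Nkx castrate against 0.46 over all tested genes, and 0.21 in Nkx intact against 0.30. Fcer1g was the only gene past 2-fold in Clu intact and in Nkx intact, where 10.5% and 13.8% of all tested genes were that far apart in either direction. In Nkx intact, Fcer1g was 6.05 times higher in replicate 1 (95% counting interval 2.09 to 23.9) and Csf1r 1.54 times higher (1.17 to 2.03). Cd74 was 0.874 times its level in Nkx intact 2 (interval 0.769 to 0.993), and the intervals of the remaining 7 genes included equality. In Clu intact the intervals of all 9 genes with a count included equality, those of C1qa (0.161 to 1.63) and C1qb (0.618 to 4.93) being wide.

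**Figure D2:**
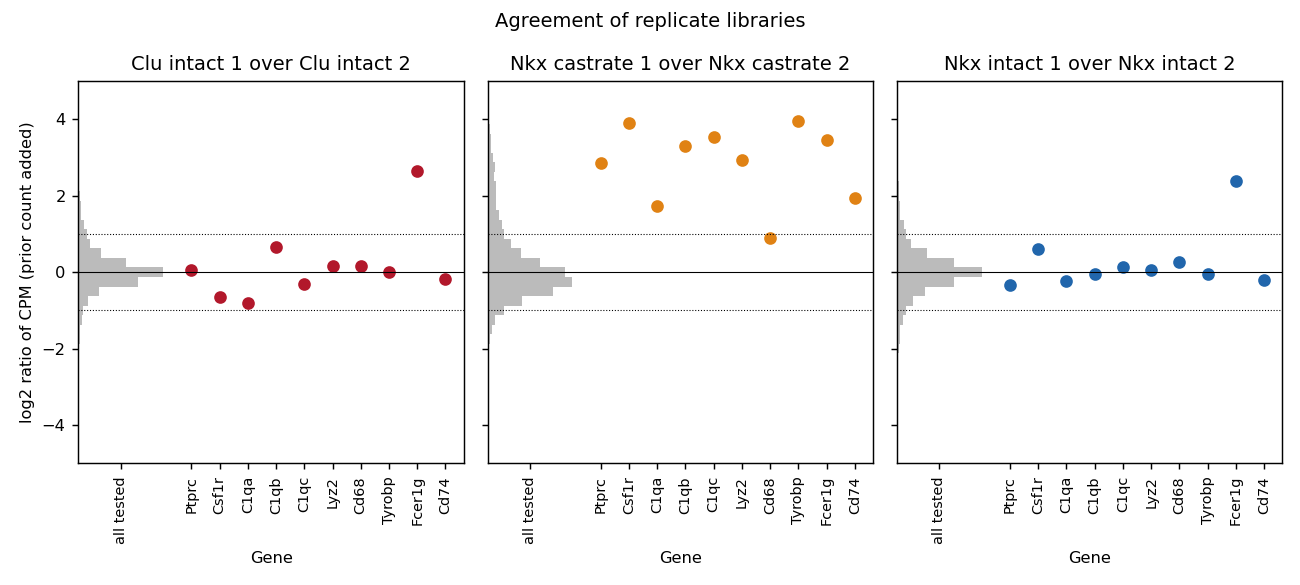
Log2 ratio of replicate 1 to replicate 2 in each group for the 10 genes (points) and, as a grey histogram at the left of each panel, for all 13846 tested genes; dotted lines mark 2-fold, and ratios are of log2 CPM with a prior count of 2. In Nkx castrate 9 of the 10 genes lie above the upper dotted line, whereas in Clu intact and Nkx intact only Fcer1g does.

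Setting Nkx castrate against Nkx intact asks whether castration changed the leukocyte RNA that came with Nkx-marked cells. No direction could be read for the 10 genes, because the Nkx castrate libraries lay on either side of Nkx intact for 9 of them, and for Cd68 Nkx castrate 2 lay between the Nkx intact libraries. Ptprc averaged 10.9 ± 11.9 CPM for Nkx castrate and 5.45 ± 0.948 CPM for Nkx intact (SD, n = 2 each), and Csf1r averaged 20.1 ± 25.1 CPM for Nkx castrate and 21.8 ± 6.52 CPM for Nkx intact. By the quasi-likelihood test of edgeR, with Benjamini-Hochberg adjustment over all genes, 0 of the 10 were called and 0 had an unadjusted p under 0.05. Of all tested genes 8.61% were called, 4.02% higher and 4.59% lower. The 0 genes without overlap between the groups stand beside 25.4% of all tested genes that were higher without overlap and 24.6% that were lower. DESeq2 and limma-voom also called 0 of the 10. The median log2 fold change was 0.044 for the 10 genes and 0.05 for all tested genes, and single values ran from -0.44 (SE 0.72) for Lyz2 to 1.01 (SE 0.82) for Ptprc.

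That result rests on which castrate library is used. Without Nkx castrate 1, 4 of the 10 were called lower in Nkx castrate, namely Csf1r (log2 fold change -3.20), Lyz2 (-2.57), C1qc (-2.54) and C1qb (-2.47). Without Nkx castrate 2, Cd74 (1.49) and Ptprc (1.82) were called higher instead. In these fits the lone castrate library is assumed to vary like the other groups. Leaving out libraries in turn gave edgeR quasi-likelihood Benjamini-Hochberg adjusted p-values from 0.00139 to 0.967 for Csf1r, from 0.000275 to 0.869 for Lyz2, from 0.0215 to 0.998 for C1qb, from 0.0226 to 0.970 for C1qc, from 0.000348 to 0.665 for Cd74 and from 0.0192 to 0.760 for Ptprc.

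Clu intact against Nkx intact compares the cells marked in the 2 models in intact males. The driver gene, the reporter and the strain prefix differ together there and cannot be told apart. Of the 10 genes, 2 passed the test, Lyz2 and C1qa, both lower in Clu intact, and 0 were called higher. All Clu intact libraries lay below all Nkx intact libraries for 9 of the 10 genes, the exception being Fcer1g, whereas 31.3% of all tested genes were lower without overlap. Lyz2 averaged 3.68 ± 0.283 CPM for Clu intact and 41.8 ± 1.11 CPM for Nkx intact (SD, n = 2 each), 11.3-fold lower (log2 fold change -3.50, SE 0.82). C1qa averaged 1.45 ± 0.614 CPM for Clu intact and 12.1 ± 1.37 CPM for Nkx intact, 8.33-fold lower (log2 fold change -3.06, SE 0.67). These 2 genes were called by edgeR's quasi-likelihood test (Benjamini-Hochberg adjusted p = 0.0326 for Lyz2 and 0.0258 for C1qa), where 5% of all tested genes were called lower, 6.29% higher and 11.3% in either direction.

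The other 8 genes were not called in that comparison. C1qb had a log2 fold change of -2.60 (SE 0.96), C1qc of -2.64 (SE 1.01), Csf1r of -2.35 (SE 1.02) and Cd74 of -1.93 (SE 0.53), with Cd74 nearest to the threshold (edgeR quasi-likelihood, Benjamini-Hochberg adjusted p = 0.0566). Together with Tyrobp they made up 5 genes at an unadjusted p under 0.05 beside the 2 called. Of all tested genes 26.2% had such a p, 12.6% of all being lower in Clu intact. Tyrobp, with 0 counts in Clu intact and 56 in Nkx intact, was lower by a factor of at least 10.2, taking 6 counts (3 read pairs) over the Clu intact group as the floor. Fcer1g was at -2.67 (SE 1.73), and Ptprc at -0.87 (SE 0.84) and Cd68 at -0.77 (SE 0.52) lay closest to 0. The median over the 10 was -2.62, also with Tyrobp at its bound, and -0.01 over all tested genes. Without any 1 of the Clu intact or Nkx intact libraries, Lyz2 and C1qa lost their calls, as they did in limma-voom. Over the libraries left out, the Benjamini-Hochberg adjusted p of edgeR's quasi-likelihood test reached 0.169 for Lyz2 and 0.153 for C1qa, whereas 7 of the 10 were called lower without Nkx castrate 1, and also 7 without Nkx castrate 2.

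Clu intact was also set against Nkx castrate. This shares the Clu intact libraries with the comparison above, and the model and castration differ together, so they cannot be told apart. Clu intact was lower in Cd74, Lyz2 and C1qa, which were called, and its libraries lay below both Nkx castrate libraries for those genes, Cd68 and Tyrobp. Cd74 averaged 24.9 ± 2.29 CPM for Clu intact and 169 ± 141 CPM for Nkx castrate (SD, n = 2 each), a log2 fold change of -2.77 (SE 0.54). The log2 fold change was -3.06 (SE 0.81) for Lyz2 and -3.09 (SE 0.67) for C1qa. In edgeR's quasi-likelihood test the Benjamini-Hochberg adjusted p was 0.0124 for Cd74, 0.0379 for Lyz2 and 0.0180 for C1qa, with 8.1% of all tested genes called lower, 8.82% higher and 16.9% in either direction. The 5 genes without overlap stand beside 30% of all tested genes lower without overlap.

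The remaining 7 genes were not called. C1qc was at -2.88 (SE 1.01), C1qb at -2.65 (SE 0.96), Csf1r at -2.24 (SE 1.01), Ptprc at -1.88 (SE 0.84), Fcer1g at -2.57 (SE 1.72) and Cd68 at -1.35 (SE 0.52) on the log2 scale. C1qb, C1qc, Cd68 and Tyrobp had an unadjusted p under 0.05, as did 32.5% of all tested genes, 16.4% of all being lower in Clu intact. Tyrobp had 0 counts in Clu intact and 82 and 2 counts in Nkx castrate. The 2 counts of Nkx castrate 2 lie under the floor of 6, so without Nkx castrate 1 no fold can be given. The median over the 10 was -2.71, also with Tyrobp at the floor, against -0.00 over all tested genes. Without Nkx castrate 1, 2 of the 10 were called lower, and the log2 fold change was -1.48 for Cd74, -1.96 for C1qa and -0.93 for Lyz2, which was no longer called (Benjamini-Hochberg adjusted p from 2.39e-06 to 0.188 over the libraries left out, by edgeR's quasi-likelihood test). Without it C1qb was at -0.12, C1qc at -0.097 and Cd68 at -0.81, and Ptprc (0.24), Csf1r (0.85) and Fcer1g (0.53) were higher in Clu intact, none of them called. Without Nkx castrate 2, 9 of the 10 were called lower, and without either Clu intact library none was.

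**Figure D3:**
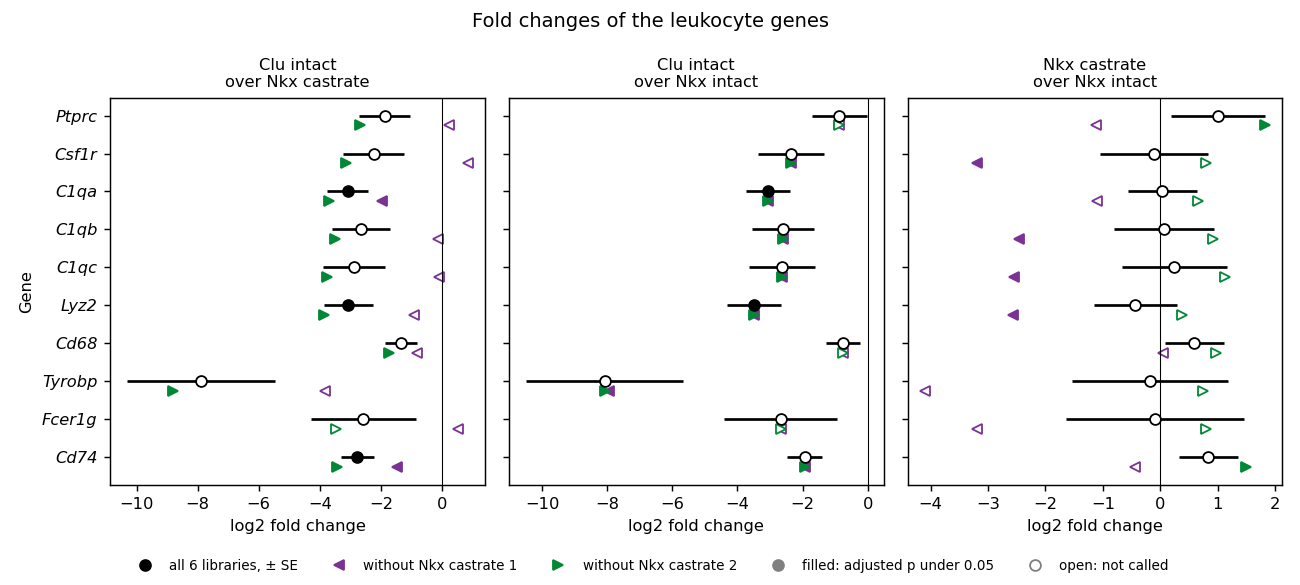
Log2 fold change of each gene (y axis) in the 3 comparisons with all 6 libraries (circles, bars are the model SE) and without either Nkx castrate library (triangles); filled markers were called at an adjusted p under 0.05 by edgeR's quasi-likelihood test. The triangles fall on opposite sides of 0 for 9 of the 10 genes in Nkx castrate over Nkx intact and nearly coincide in Clu intact over Nkx intact; the Tyrobp value against Clu intact is a fit to 0 counts and is no measured fold.

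C1qb and C1qc were the closest pair in pattern, with a root-mean-square difference of 0.30 between their centred log2 CPM over the 6 libraries. Csf1r and C1qc followed at 0.35, C1qb and Lyz2 at 0.42, and Lyz2 and Tyrobp at 0.43. The most distant pair was Cd68 and Tyrobp at 1.65. The bases upstream of 4 genes are shown for the near neighbours C1qb, C1qc and Lyz2 and for Cd68, which varied least, from RefSeq's GRCm38.p6 table, cut so that they lie before the RefSeq start and outside the GENCODE gene.
C1qb, chr4:136886201-136886450, minus strand: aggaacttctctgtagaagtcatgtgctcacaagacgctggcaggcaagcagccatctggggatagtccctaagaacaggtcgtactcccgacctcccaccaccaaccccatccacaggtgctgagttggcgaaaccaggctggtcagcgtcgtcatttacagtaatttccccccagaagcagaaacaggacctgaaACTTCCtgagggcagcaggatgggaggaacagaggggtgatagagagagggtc
C1qc, chr4:136893066-136893164 (the 99 bases farthest from the start), minus strand: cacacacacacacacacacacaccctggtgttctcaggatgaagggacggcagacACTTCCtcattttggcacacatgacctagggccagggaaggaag
Lyz2, chr10:117282322-117282522 (the 201 bases farthest from the start), minus strand: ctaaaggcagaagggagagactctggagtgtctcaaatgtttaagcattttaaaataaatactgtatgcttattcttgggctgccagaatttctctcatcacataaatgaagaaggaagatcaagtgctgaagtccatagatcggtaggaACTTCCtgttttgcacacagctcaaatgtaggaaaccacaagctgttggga
Cd68, chr11:69666171-69666420, minus strand: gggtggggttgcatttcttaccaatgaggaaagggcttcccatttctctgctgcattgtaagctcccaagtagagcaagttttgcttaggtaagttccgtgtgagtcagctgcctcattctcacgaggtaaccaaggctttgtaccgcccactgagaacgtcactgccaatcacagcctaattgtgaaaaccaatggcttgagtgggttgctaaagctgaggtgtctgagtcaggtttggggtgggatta
The capitals mark GGAAGT or its reverse complement ACTTCC, which contains the core letters of binding sites of ETS factors such as PU.1, the factor encoded by Spi1 that myeloid cells depend on. It was searched on both strands of the 250 bases before each RefSeq start, and its letters were chosen after the sequences had been read. It began 53 bases before the start in C1qb, 195 in C1qc and 100 in Lyz2, and it was not among these letters of Cd68. Of the 6 members that were counted, 4 held it in at least 1 window, namely C1qb, C1qc, Lyz2 and Ptprc. Cd68 and Fcer1g were counted and did not hold it. Csf1r, Cd74, C1qa and Tyrobp were not searched, so the count leaves out Csf1r, a near neighbour of C1qc in pattern. Over all genes, 19.7% of 32851 windows held it. A match describes the letters only.

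Genes outside the 10 were ranked by how closely their centred log2 CPM followed the mean of the 10 over the 6 libraries. The nearest were Ccl3, a chemokine of macrophages, at a root-mean-square difference of 0.28, then Ier5l at 0.29, the keratin Krt16 at 0.32, Aebp1 at 0.35, Scarf2 at 0.35 and F13a1, the coagulation factor chain made by some macrophages, at 0.35. Inf2, Tpm2, Fyb and Cybb, an oxidase subunit of phagocytes, completed the first 10 at up to 0.40. Ccl3 was at 2.02 and 1.69 CPM for Clu intact, 15.4 and 3.55 CPM for Nkx castrate, and 15.0 and 10.1 CPM for Nkx intact. For Cd74 the nearest genes were H2-Ab1 (0.11) and H2-Aa (0.20), both class II chains. Csf1r was nearest to Evc (0.17), Cd68 to Map3k14 (0.08), Ptprc to Adam19 (0.20) and C1qb to Plek (0.28), a protein of platelets and leukocytes. With 6 libraries in 3 groups, many genes can share such a pattern.

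Other leukocyte genes differed between the Nkx castrate libraries as the 10 did. The 24 further macrophage and monocyte genes summed to 86.1 and 87.7 CPM for Clu intact, 209 and 39.8 CPM for Nkx castrate, and 101 and 104 CPM for Nkx intact. Of the 19 that were tested, 18 were more than 2-fold higher in Nkx castrate 1 than in Nkx castrate 2, where 18.3% of all tested genes were at least 2-fold higher. By edgeR, 0 were called in any of the 3 comparisons. Over all tested genes, 16.9% were called in Clu intact against Nkx castrate, 11.3% in Clu intact against Nkx intact and 8.61% in Nkx castrate against Nkx intact. At an unadjusted p under 0.05, 7 were lower in Clu intact than in Nkx castrate, 4 lower in Clu intact than in Nkx intact, and 0 differed between Nkx castrate and Nkx intact. The shares of all tested genes lower at that p were 16.4% in Clu intact against Nkx castrate and 12.6% in Clu intact against Nkx intact, and 23.6% of all genes had such a p in either direction in Nkx castrate against Nkx intact. Adgre1, which encodes the macrophage antigen F4/80, was at 0.337 and 1.22 CPM for Clu intact, 15.5 and 1.48 CPM for Nkx castrate, and 2.87 and 4.54 CPM for Nkx intact. Cd163, a scavenger receptor for haemoglobin on resident macrophages, was at 1.35 and 0.564 CPM for Clu intact, 11.6 and 1.77 CPM for Nkx castrate, and 4.97 and 3.95 CPM for Nkx intact. The mannose receptor gene Mrc1 did not follow them, with 32.5 and 40.4 CPM for Clu intact, 33.7 and 5.62 CPM for Nkx castrate, and 17.3 and 15.9 CPM for Nkx intact. It is also known from endothelial cells, whose 12 markers summed to 1179 and 485 CPM for Clu intact, 518 and 75.0 CPM for Nkx castrate, and 82.6 and 57.0 CPM for Nkx intact.

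The class II chains of H2-Aa, H2-Ab1 and H2-Eb1, which the invariant chain escorts, followed Cd74. The 9 listed genes of class II presentation, not all of them such chains, summed to 30.3 and 26.9 CPM for Clu intact. Their sum was 315 and 67.3 CPM for Nkx castrate, and 102 and 108 CPM for Nkx intact. H2-Ab1 was at 10.97 and 10.4 CPM for Clu intact, 135 and 30.0 CPM for Nkx castrate, and 39.9 and 42.1 CPM for Nkx intact. H2-DMb1, also among the 9, followed less. It was at 1.52 and 1.41 CPM for Clu intact, 3.37 and 0.517 CPM for Nkx castrate, and 2.39 and 1.48 CPM for Nkx intact. Of the 6 tested, 3 were called lower in Clu intact against Nkx castrate, H2-Aa (log2 fold change -2.41), H2-Ab1 (-2.95) and H2-Eb1 (-3.40), and 0 were called in the other 2 comparisons (edgeR quasi-likelihood, Benjamini-Hochberg). At an unadjusted p under 0.05, 3 were lower in Clu intact than in Nkx intact and 0 differed between Nkx castrate and Nkx intact. Over all tested genes, 8.1% were called lower in Clu intact against Nkx castrate. The shares called in either direction were 11.3% in Clu intact against Nkx intact and 8.61% in Nkx castrate against Nkx intact. At the unadjusted p, 12.6% of all tested genes were lower in Clu intact than in Nkx intact, and 23.6% differed between Nkx castrate and Nkx intact.

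Immunoglobulin RNA was also present. The 10 genes of B and plasma cells summed to 7.68 and 7.24 CPM for Clu intact, 306 and 42.1 CPM for Nkx castrate, and 48.0 and 21.2 CPM for Nkx intact. Ighm, the heavy chain of IgM, accounted for most of it, at 3.88 and 4.52 CPM for Clu intact, 195 and 26.4 CPM for Nkx castrate, and 30.2 and 10.9 CPM for Nkx intact. Ighm (log2 fold change -4.72), Jchain (-4.77), Igkc (-4.17) and Ms4a1, which encodes CD20 and had 0 counts in Clu intact, were the 4 genes tested. All were called lower in Clu intact against Nkx castrate by edgeR, where 8.1% of all tested genes were called lower. The 17 T and NK cell genes summed to 22.6 CPM in Nkx castrate 1 and to between 1.68 and 6.50 CPM in the other libraries. Neutrophil RNA was near 0, since S100a9 and Ngp had no count in any library and the 10 neutrophil genes summed to at most 4.55 CPM.

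Some genes often used as leukocyte markers did not follow the 10. Lcp1, an actin bundling protein, was at 100.5 and 144 CPM for Clu intact, 116 and 140.2 CPM for Nkx castrate, and 86.0 and 96.0 CPM for Nkx intact. Ptpn6, a phosphatase of blood cells and epithelia, was at 32.8 and 33.4 CPM for Clu intact, 24.2 and 24.5 CPM for Nkx castrate, and 23.1 and 23.9 CPM for Nkx intact. The lymphoid transcription factor gene Ikzf1 was higher in Clu intact than in Nkx intact, at 13.9 and 19.8 CPM for Clu intact against 2.58 and 1.78 CPM for Nkx intact (log2 fold change 2.95, edgeR quasi-likelihood, Benjamini-Hochberg adjusted p = 0.00618). Of the 15 tested genes of the general leukocyte list, 1 was called higher and 0 lower in Clu intact against Nkx intact. Against Nkx castrate, 1 was called lower in Clu intact, Cd37, a leukocyte tetraspanin. Over all tested genes, 6.29% were called higher and 5% lower in Clu intact against Nkx intact, and 8.1% lower against Nkx castrate. Cd37 had 0 counts in Clu intact, 4.83 and 0.887 CPM for Nkx castrate, and 1.91 and 0.395 CPM for Nkx intact. Between the castrate libraries, 11 of the 15 genes were more than 2-fold higher in Nkx castrate 1 than in Nkx castrate 2, where 18.3% of all tested genes were at least 2-fold higher.

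Ligands, partners and signalling genes of the members gave a mixed picture. Of 12 tested, 1 was called higher and 1 lower in Nkx castrate against Nkx intact, 3 higher in Clu intact against Nkx intact, and 1 lower in Clu intact against Nkx castrate. The shares of all tested genes called were 4.02% higher and 4.59% lower in Nkx castrate against Nkx intact. They were 6.29% higher in Clu intact against Nkx intact and 8.1% lower in Clu intact against Nkx castrate. Cd44, which joins CD74 in a receptor for MIF, rose in Nkx castrate against Nkx intact (log2 fold change 1.24) and was higher in Clu intact than in Nkx intact (2.06). C1ra, the complement protease that binds C1q, fell in Nkx castrate (log2 fold change -3.61), with 21.9 and 3.99 CPM for Nkx castrate and 121 and 199 CPM for Nkx intact. Reads of C1ra may be shared with its close copy. Mif, the ligand of CD74, was lower in Clu intact than in Nkx castrate (log2 fold change -0.95). Benjamini-Hochberg adjusted p-values (edgeR, quasi-likelihood) were 0.0210 and 0.00256 for Cd44 in those comparisons, 0.0174 for C1ra and 0.0151 for Mif.

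Endothelial, fibroblast and smooth muscle RNA moved with the leukocyte genes between the Nkx castrate libraries, whereas red cell and glial RNA differed less. Nkx castrate 1 exceeded Nkx castrate 2 in the summed level of endothelial markers by 6.90 times, of fibroblast and smooth muscle markers by 3.97 times, and of basal epithelial markers by 1.70 times, against 4.76 times for the 10 leukocyte genes. The ratio was 1.11 for the 5 listed red cell genes and 1.39 for the 4 listed glial genes. It was 0.757 for the general epithelial markers and 0.702 for the prostate luminal genes. The fibroblast and smooth muscle markers summed to 733 and 590 CPM for Clu intact, 2259 and 569 CPM for Nkx castrate, and 768 and 633 CPM for Nkx intact. In Clu intact the endothelial RNA was high while the 10 leukocyte genes were lowest, so the lists did not move together across groups. The part of these cell types in the fold changes of the 10 genes was not tested.

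**Figure D4:**
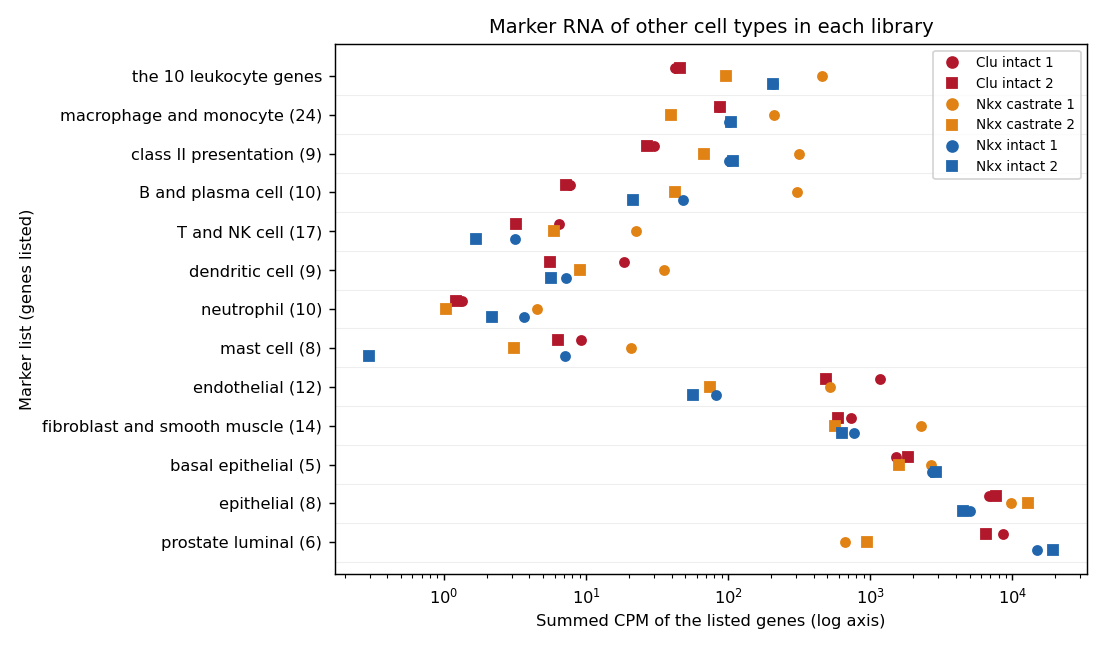
Summed CPM (log axis) of each marker list in each of the 6 libraries; circles are replicate 1, squares replicate 2, colours the groups, and the number of genes listed is in brackets. Nkx castrate 1 is the highest library for the 10 leukocyte genes and for the lists of macrophages, class II genes and B, T, dendritic and mast cells and neutrophils, while Clu intact 1 is highest for the endothelial list.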

How the data were processed

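The table that the authors deposited holds raw counts by gene symbol for 6 libraries, all whole numbers. Per the submitters' processing notes, the processing involved the build GRCm39, featureCounts of Subread 2.0.1, STAR 2.7.9a and FastQC 0.11.9. Not given in the sources used here are its annotation, strand setting and treatment of multiply aligned reads or molecular identifiers. Per the labels' protocols, the library kit was the SMARTer Stranded Total RNA-Seq Kit.

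With edgeR 4.0.16 in R 4.3.3, filterByExpr kept 13846 genes, TMM gave the scaling, and glmQLFit estimated 3 group means jointly from the 6 libraries (3 residual degrees of freedom). Each comparison was a two-sided quasi-likelihood test, adjusted over all tested genes by Benjamini-Hochberg, called at an adjusted p under 0.05. Log2 fold changes are first-named over second-named group. Replicate numbers were not treated as pairs. Alternatives were DESeq2 1.42.0, limma-voom (limma 3.58.1), other scalings and filters, only the groups compared, a replicate block, halved counts (added after seeing the data), and leaving out each library. Counting intervals are 95% exact conditional binomial intervals.

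The members and all gene lists were chosen with earlier results of these data known. From other lists, up to 6 genes could be named, called genes first, then the most abundant, and the nearest genes by pattern were named by rank. Csf1, Il34, Lyz1, S100a9 and Ngp were named outside that rule, after their values were seen. Gene lengths and overlaps are from GENCODE M21, an earlier build.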

Additional observations from a re-analysis of the deposited data

How the results depend on the processing

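Of the 3 comparisons, Clu intact against Nkx intact kept its direction for all 10 genes under all alternatives and with each library left out. Genes called in Nkx castrate against Nkx intact numbered 1192, and 2015 with DESeq2, 2300 without a filter, 671 with only the 2 groups compared and 209 to 2412 with a library left out. Members called higher numbered 0, and 1 without a filter and 0 to 2 with a library left out, and those called lower 0 to 4. For Clu intact against Nkx intact there were 1563 genes, and 2457, 2665 and 3309 under the same 3 alternatives and 391 to 3351 with a library left out. Members called lower numbered 2, and 6 with DESeq2, 0 with limma-voom, 7 without a filter, 7 with only the 2 groups compared and 0 to 7 with a library left out. Members called higher numbered 0 under each alternative in the 2 comparisons of Clu intact. Against Nkx castrate there were 2342 genes, and 3518 without a filter and 687 to 3854 with a library left out. Members called lower numbered 3, and 6 with DESeq2, 1 with limma-voom, 8 without a filter, 1 with only the 2 groups compared and 0 to 9 with a library left out. Cases of a single library in a group assume that it varies like the others, and the cause of these moves was not tested.

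The signs of C1qa, C1qb and C1qc in Nkx castrate against Nkx intact, none called, turned to -0.11, -0.55 and -0.46 in limma-voom and to -0.058, -0.54 and -0.25 with the replicate block. With a library left out, their log2 fold changes ran from -1.10 to 0.65, -2.47 to 0.91 and -2.54 to 1.12, those of Ptprc from -1.11 to 1.82, Cd74 from -0.45 to 1.49, Lyz2 from -2.57 to 0.38, Csf1r from -3.20 to 0.79, Tyrobp from -4.10 to 0.75 and Fcer1g from -3.19 to 1.69. In Clu intact against Nkx castrate they ran from -2.69 to 0.24 for Ptprc, -3.14 to 0.85 for Csf1r and -8.02 to 0.53 for Fcer1g.

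The replicate numbers are not linked in the labels, and deviations of same-numbered libraries correlated at 0.0901, 0.0437 and 0.234 across genes in the 3 comparisons. With the replicate block, the comparisons called 1511, 1964 and 2779 genes in the order above, and 0, 3 and 3 members lower, Cd74 being the gene gained.

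Leaving ribosomal RNA and the 50 most abundant genes out of the unscaled library total gave a summed share of 55.5 and 59.2 CPM for Clu intact, 610.1 and 120.02 CPM for Nkx castrate and 266 and 268 CPM for Nkx intact. Without Lyz2 and Cd74 it was 15.7 and 16.2, 140.5 and 19.0, and 75.5 and 64.2 CPM, and with all 10 genes and the whole total 43.9 and 46.5, 472 and 91.4, and 206 and 205 CPM, with the groups in the same order. On library totals alone, the log2 ratio of the sum in Nkx castrate 1 to Nkx castrate 2 was 2.37. Depth limits Tyrobp and Fcer1g most, at 0 to 87 counts per library.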

Other observations

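Csf1, the ligand of the receptor encoded by Csf1r, was more abundant than its receptor in most libraries, at 48.2 and 29.5 CPM for Clu intact, 59.2 and 22.8 CPM for Nkx castrate, and 12.1 and 13.9 CPM for Nkx intact. Il34, the other ligand, was at most 1.98 CPM in any library. C3, the central complement protein, was at 93.8 and 87.1 CPM for Clu intact, 108 and 11.4 CPM for Nkx castrate, and 18.4 and 19.0 CPM for Nkx intact. These levels are given as descriptions.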
